A study of Mus musculus with 2 samples.

Results

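Matrix proteases and their inhibitors were followed through mouse kidney cells as 8 genes chosen by name: the proteases Adamts1, Adamts5, Mmp2, Mmp7 and Mmp14 and the tissue inhibitors of metalloproteinases Timp1, Timp2 and Timp3. They are 8 of the 31053 genes in the count matrices, and each had at least 1 UMI (unique molecular identifier, a tag that marks 1 captured transcript) over both libraries. The study profiled kidney cells of mice aged 5 weeks by droplet single-cell RNA sequencing of transcript 3′ ends, with 1 library from a wild type kidney preparation (WT) and 1 from a preparation labelled Kif3aΔTub (KO). Kif3a encodes a motor subunit of kinesin-2 that cells need to build a cilium. The labels give the genotype only as KO, name no promoter or Cre line behind the deletion, name no further allele of the wild type and do not say how many mice entered a library. For both, minced and homogenised kidney went through red cell lysis, digestion on ice with a cold active protease and dead cell removal. Counts of Kif3a 3′ ends need not show the loss of an exon and were not used to check the genotype. With 1 library per genotype no difference between the genotypes could be tested: intervals are 95% intervals for counting error only, and genotype, mouse and preparation cannot be told apart.

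Matrix metalloproteinases and ADAMTS proteases are secreted or membrane-bound zinc enzymes that cut collagens, proteoglycans and other proteins outside the cell. Most are made as inactive precursors, and TIMP proteins bind the active site and block it. In the kidney this balance is known for its part in basement membrane upkeep, tubule remodelling and fibrosis. Mmp14 is anchored in the membrane and activates the Mmp2 precursor with Timp2 as adaptor, Mmp7 (matrilysin) is an epithelial protease known as a marker of tubule injury and Wnt signalling, Adamts1 and Adamts5 cleave proteoglycans such as versican and aggrecan, and Timp3 stays bound to the matrix and also inhibits ADAM and ADAMTS enzymes.

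In the GRCm38 (mm10) annotation, GENCODE release 21 for mouse, Adamts1 (chr16:85793827-85803113, minus strand) and Adamts5 (chr16:85856173-85901828, minus strand) are neighbours with 53059 bases between them. Mmp2 lies at chr8:92827291-92853420, Mmp7 at chr9:7692090-7699585 and Mmp14 at chr14:54431612-54445364, each on the plus strand. Timp1 (chrX:20870166-20874735, plus strand) lies inside Syn1 on the other strand, Timp3 (chr10:86300372-86349506, plus strand) lies inside Syn3 on the other strand, and Timp2 (chr11:118301069-118355740, minus strand) holds Cep295nl on the same strand. The RefSeq promoter table (GRCm38.p6) held 6 of the 8 genes. Shown are the 250 bases before the start of Mmp7, which had no wild type UMI, of Adamts1, which was higher in the knockout in each cell class compared, and of Timp1, which had no UMI in the wild type tubule classes, each 5′ to 3′ on the strand of the gene, with matches to the searched motifs in capitals. The windows are chr9:7691840-7692089 (plus strand), chr16:85803114-85803363 (minus strand) and chrX:20869916-20870165 (plus strand).
Mmp7: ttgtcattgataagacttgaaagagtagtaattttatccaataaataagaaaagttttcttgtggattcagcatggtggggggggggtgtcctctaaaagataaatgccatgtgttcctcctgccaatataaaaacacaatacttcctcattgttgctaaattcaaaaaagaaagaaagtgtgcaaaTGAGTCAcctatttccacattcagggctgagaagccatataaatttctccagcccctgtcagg
Adamts1: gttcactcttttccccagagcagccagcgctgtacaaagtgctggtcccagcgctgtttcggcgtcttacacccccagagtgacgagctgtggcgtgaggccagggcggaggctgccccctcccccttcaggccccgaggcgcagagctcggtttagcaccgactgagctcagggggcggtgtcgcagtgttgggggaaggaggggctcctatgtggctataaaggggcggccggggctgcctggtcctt
Timp1: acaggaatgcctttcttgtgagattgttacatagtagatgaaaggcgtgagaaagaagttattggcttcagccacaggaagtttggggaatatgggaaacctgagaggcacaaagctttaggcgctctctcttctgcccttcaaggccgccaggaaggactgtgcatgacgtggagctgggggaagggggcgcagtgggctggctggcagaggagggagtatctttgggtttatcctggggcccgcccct
The motifs searched on both strands were AP-1 (TGANTCA), STAT (TTCNNNGAA), CRE (TGACGTCA) and 2 forms of TCF/LEF (CTTTGAT and CTTTGTT). The match in capitals is an AP-1 motif of Mmp7, 63 to 57 bases before the start, and the Adamts1 and Timp1 windows held none of these letters. Of 32851 windows of the same length, 6.75% held the AP-1 motif, 7.02% STAT, 1.55% CRE, and 3.21% and 5.03% the TCF/LEF forms.

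After filtering and doublet removal 4317 of 6938 wild type and 7066 of 7950 knockout barcodes were kept, with 42468386 and 79060495 UMIs and medians of 7771 and 7799 per cell. The libraries shared 20 barcodes, 17 of them among kept cells. The wild type cells had a median mitochondrial share of 26.8% of UMIs and the knockout cells 7.54%, and a list of 21 dissociation response genes (Fos, Jun, Hspa1a and others) summed to 638 and 2632 CPM (counts per 1000000 UMIs of the cells summed). CPM values are not scaled by length, so levels are compared between cells and not between genes. Cells were clustered without the members and named from marker lists. The wild type library was mostly proximal tubule-like cells (2984) and the knockout library held 1590 principal-like, 1032 proximal tubule-like, 706 macrophage-like and 616 thick ascending limb-like cells, so levels are given within a class. The genotypes were compared in the 6 classes with 100 or more cells from both: proximal tubule-like, thick ascending limb-like, distal convoluted tubule-like, principal-like (collecting duct principal and connecting tubule cells together), intercalated-like and endothelium-like. In the tubule classes the 2 libraries mostly filled different clusters. Proximal tubule-like cells came from clusters 0, 1, 2, 3 and 9 in the wild type and mainly from 17 and 13 in the knockout. Thick ascending limb-like cells came from clusters 7 and 25, distal convoluted tubule-like cells from 4 and from 5 and 4, principal-like cells from 10 and from 26, 29 and 6, and intercalated-like cells from 8, 12 and 20 and from 20, 31 and 12. Intercalated cluster 20 (55 wild type and 339 knockout cells) had a median of 820 UMIs. It passed 12 of 18 intercalated, 9 of 17 principal and connecting tubule and 9 of 15 injury markers. With clusters 2, 20 and 29 left out, 0 member ratios moved beyond the spread of the reported value. Endothelium-like cells of both came from clusters 14 and 11. Only cells of the knockout library formed the fibroblast-like (27 cells) and injured tubule-like (73 cells) classes and the unnamed cluster 27 (624 cells), which passed 11 of 17 principal and connecting tubule markers and 10 of 15 injury markers. The injured tubule-like class, cluster 18, passed 8 of 15 injury markers and 7 of 12 cycling markers. Thick ascending limb-like cluster 25 and distal convoluted tubule-like cluster 5 passed 10 of 15 injury markers, so these markers were not particular to cluster 18.

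In the wild type kidney Timp3 and Mmp14 had UMIs in all 6 compared classes, most Adamts1 UMIs lay in the proximal tubule, and Adamts5 lay mainly in mural and endothelial cells. Levels are ordered here over named wild type classes of at least 16 cells. Timp3 was highest in endothelium-like cells at 4845 CPM, followed by 2030 in the 16 podocyte-like cells (interval 1782 to 2303) and 1348 in proximal tubule-like cells, 3 levels whose intervals did not overlap. These intervals do not cover the spread between cells: 9 of 154 endothelium-like cells held 50% of the UMIs, and 1 podocyte-like cell held 73 of 241. Mural-like and principal-like cells followed at 536 and 484 CPM with overlapping intervals, then thick ascending limb-like cells at 265, distal convoluted tubule-like cells at 220 and intercalated-like cells at 113 CPM, again without overlap, leaving out the B-like cells with 5 UMIs. Timp2 was highest in podocyte-like cells at 472 CPM (56 UMIs, 18 of them in 1 cell), followed among these classes by mural-like cells at 201 and principal-like cells at 165 CPM, which overlapped, and endothelium-like cells at 93.6 CPM. Its level was 0.325 CPM in proximal tubule-like cells. Adamts5 was found in mural-like cells at 257 CPM, where 1 cell held 27 of the 50 UMIs, and in endothelium-like cells at 54.6 CPM. All 10 wild type Timp1 UMIs were in endothelium-like cells. Mmp7 had no UMI in any kept wild type cell, which allows at most 0.0706 CPM over the library.

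**Figure D1:**
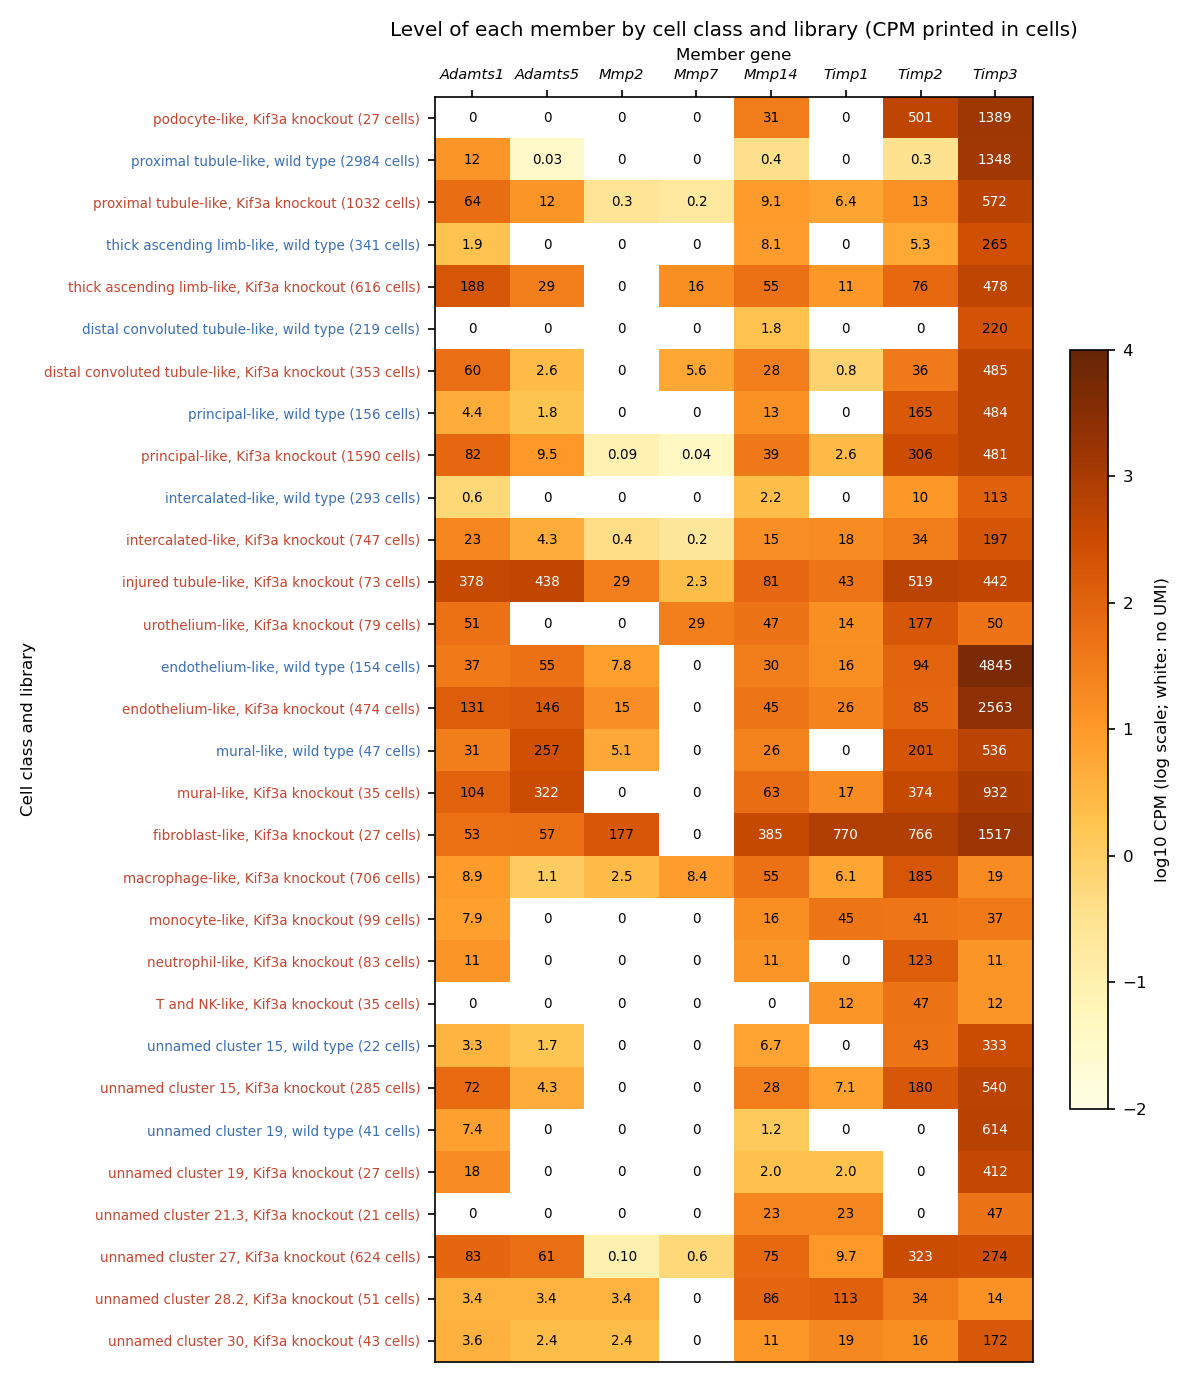
Level of each member gene (columns) in each cell class and library with at least 20 cells (rows; blue labels wild type, red labels Kif3a knockout). Colour is log10 CPM, the CPM is printed in each cell, and white means no UMI; in the knockout rows Adamts1 is found in nearly every tubule class, while fibroblast-like cells are the highest for Timp1 and Mmp2.

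The cells that held each transcript differed between the libraries. In the wild type, 87.6% of Adamts1 UMIs and 86.8% of Timp3 UMIs lay in proximal tubule-like cells, which made up 72.5% of all kept UMIs. Of the knockout UMIs, principal-like cells held 28.5% of the Adamts1 UMIs and thick ascending limb-like cells 22.2%, and Timp3 was spread over principal-like (29.3%), proximal tubule-like (16.9%) and other cells. Of all kept knockout UMIs, principal-like cells held 28.7%, proximal tubule-like cells 14.0% and thick ascending limb-like cells 9.71%. The Adamts1 and Timp3 shares of principal-like cells were thus near their share of all UMIs. Adamts5 lay in mural-like (56.2%) and endothelium-like (39.3%) cells of the wild type, and in cluster 27 (31.6%) and injured tubule-like cells (19.5%) of the knockout, although injured tubule-like cells were 1.03% of its cells. Fibroblast-like cells were 0.382% of kept knockout cells and held 39.8% of Mmp2 and 23.7% of Timp1 UMIs. Timp2 was mainly a principal-like transcript in both, at 42.7% of its wild type and 47.4% of its knockout UMIs, with a further 22.4% of the knockout UMIs in cluster 27. Principal-like cells held 2.69% of all kept wild type UMIs, and cluster 27 held 12.8% of the knockout ones.

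**Figure D2:**
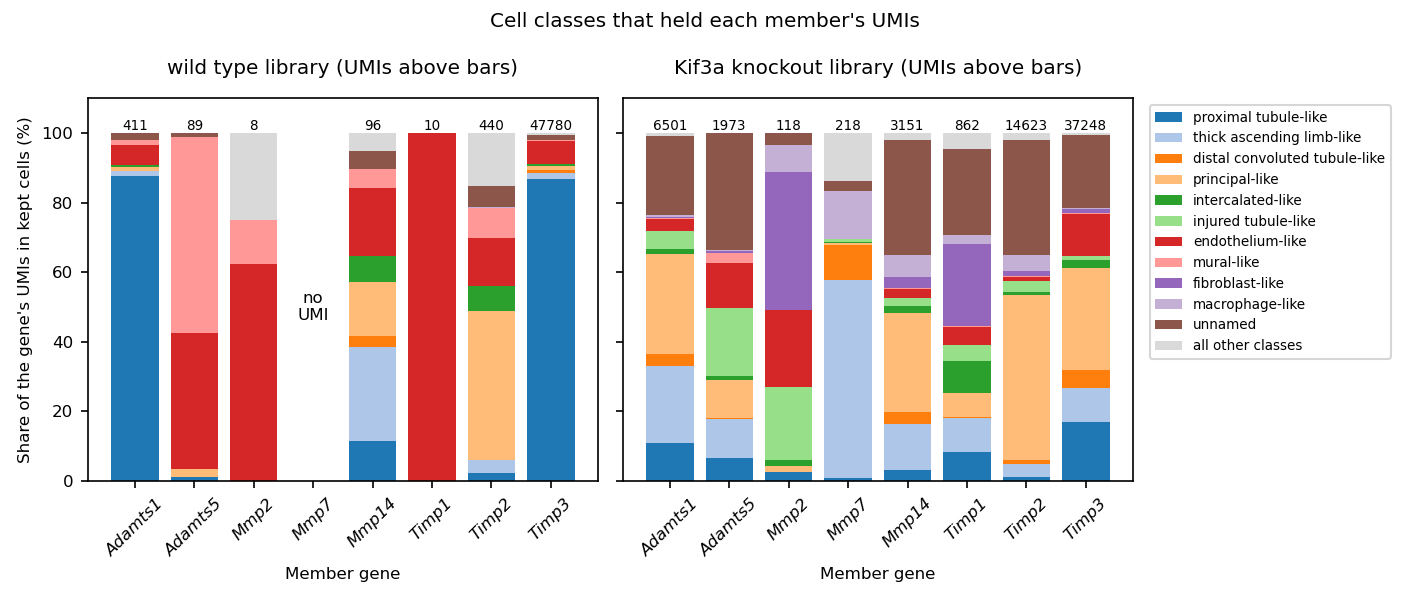
Share of each member's UMIs (vertical axis, %) held by each cell class in the wild type library (left) and the Kif3a knockout library (right), with the number of UMIs printed above each bar. Adamts1 and Timp3 are mainly proximal tubule-like in the wild type, where Mmp7 has no UMI, and both are spread over several classes in the knockout. Proximal tubule-like cells held 72.5% of all kept UMIs in the wild type and 14.0% in the knockout.

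Adamts1, a secreted protease that cuts versican and aggrecan, was higher in the knockout library in all 6 compared classes, with the highest ratio in the thick ascending limb among the 5 classes where both libraries had UMIs. In thick ascending limb-like cells it was at 1.86 CPM in the wild type (6 UMIs) and 188 CPM in the knockout (1446 UMIs), a log2 ratio of 6.55 (5.54 to 8.11). It had no UMI in wild type distal convoluted tubule-like cells and 59.7 CPM in the knockout, which is at least 32.6-fold higher. The levels were 4.38 and 81.8 CPM in principal-like cells (log2 ratio 4.09), 0.631 and 23.2 CPM in intercalated-like cells (4.89), 11.7 and 63.7 CPM in proximal tubule-like cells (2.44, 2.26 to 2.63), and 37.4 and 131 CPM in endothelium-like cells (1.78, 1.20 to 2.48). None of these pairs of intervals overlapped. In proximal tubule-like cells 281 of 2984 wild type cells held the 360 UMIs with at most 4 in a cell, and 272 of 1032 knockout cells held 703 UMIs with up to 29, at medians of 8013 and 8017 UMIs per cell. Wild type cluster 9 reached 28.6 CPM and the other wild type proximal clusters 2.56 to 11.8 CPM. Knockout cluster 17 had 75.1 CPM and cluster 13 had 23.5 CPM. In distal convoluted cluster 4, with 218 wild type and 99 knockout cells, it was at 0 and 17.3 CPM, at least 9.47-fold higher. The knockout interval there was 9.47 to 29.1 CPM, and knockout cluster 5 had 70.7 CPM. The highest knockout level was 378 CPM in injured tubule-like cells (interval 338 to 421), followed by the thick ascending limb. The lowest upper bound among knockout clusters of at least 500000 UMIs was 10.6 CPM (cluster 30, 3.62 CPM). The part of free RNA in these levels was not tested. In shared intercalated cluster 12 (117 and 106 cells) Adamts1 was at 0 and 14.7 CPM (22 UMIs), at least 7.95-fold higher. Intercalated cluster 20 had 0 and 13 UMIs, at least 1.64-fold higher. Shared proximal cluster 2 (484 and 72 cells) had 5 and 0 UMIs, with a ratio interval up to 3.21 that includes 0. Proximal cluster 0 had 8.05 CPM in the wild type and 5.99 CPM (1 UMI) in its 18 knockout cells. Endothelial clusters 11 and 14 had ratios of 2.59 (1.65 to 3.91) and 0.99 (0.24 to 1.90).

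Adamts5, an aggrecan-cleaving protease encoded beside Adamts1, had 1 UMI in wild type proximal tubule-like cells and 128 in the knockout (0.0325 and 11.6 CPM, log2 ratio 7.90, 5.98 to 13.8). The knockout UMIs lay in 37 of 1032 cells, and 6 cells held 50% of them. With clustering at resolution 2 this ratio was 3.17 (-0.10 to 9.25), an interval that includes 0. In thick ascending limb-like cells it had no wild type UMI and 28.9 CPM in the knockout, at least 31.1-fold higher. It was at 1.75 and 9.48 CPM in principal-like cells (2.12, 0.57 to 5.49), and at 0 and 4.34 CPM in intercalated-like cells (at least 4.59-fold), beside a lowest upper bound among the large knockout clusters of 2.86 CPM. In shared clusters 4 and 12 it had no wild type UMI and 0 and 1 knockout UMIs. Distal convoluted tubule-like cells had 0 and 10 UMIs, under the 20 UMIs required for a count. In endothelium-like cells it was at 54.6 and 146 CPM (1.40, 0.90 to 1.97), and this lay in cluster 14 (107 and 318 CPM), with 13.9 and 22.4 CPM in cluster 11. Injured tubule-like cells had the highest knockout level at 438 CPM, in 63 of 73 cells, and Adamts5 was among the 10 leading genes of that cluster although clustering did not use it. Mural-like cells had 322 CPM (243 to 418), an interval that overlaps that of the injured cells (396 to 484), and 257 CPM in the wild type.

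Mmp7 (matrilysin) was the member with no wild type UMI, and its 218 knockout UMIs lay in 51 of 7066 cells, 7 of which held 50%. Thick ascending limb-like cells held 124 of these UMIs (16.2 CPM, 33 of 616 cells) and distal convoluted tubule-like cells 22 (5.63 CPM, 7 cells), at least 17.4-fold and 3.08-fold higher than the wild type limits. In the thick ascending limb 6 cells held 50% of the UMIs. Principal-like cells had 1 UMI among 1590 cells. Urothelium-like cells had 30 UMIs in 3 of 79 cells, 19 of them in 1. All 30 macrophage-like UMIs came from 1 cell of 14434 UMIs, against a class median of 4390, which also held UMIs of 10 of 15 injured tubule markers and 7 of 10 macrophage markers. All 22 distal convoluted UMIs lay in cluster 5, with none in shared cluster 4. Several large knockout clusters had no Mmp7 UMI, and the lowest upper bound among all large knockout clusters was 0.277 CPM (cluster 26, 1 UMI).

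Mmp14, the membrane-anchored protease that activates Mmp2, was higher in the knockout in the 5 tubule classes. Its levels were 0.357 and 9.06 CPM in proximal tubule-like cells (log2 ratio 4.61, 3.76 to 5.71), 8.07 and 54.6 CPM in thick ascending limb-like cells (2.73, 2.19 to 3.39), and 1.83 and 27.9 CPM in distal convoluted tubule-like cells (3.72, 2.35 to 6.23). They were 2.21 and 15.0 CPM in intercalated-like cells (2.67, 1.64 to 4.13) and 13.1 and 39.3 CPM in principal-like cells (1.53, 0.85 to 2.42). Endothelium-like cells had 29.6 and 44.9 CPM, a ratio of 0.57 whose interval (-0.14 to 1.41) includes 0. Among the 6 wild type classes the endothelium and principal levels overlapped, as did the principal and thick ascending limb levels, and the proximal tubule was lowest. In the clusters that both libraries filled the difference was within counting error: intercalated cluster 12 had 1.23 and 2.68 CPM (0.96, -1.69 to 4.58) and distal convoluted cluster 4 had 1.83 and 6.19 CPM (1.67, -0.60 to 4.45). The lowest upper bound among large knockout clusters was 6.85 CPM, in cluster 12. In the knockout, fibroblast-like cells had 385 CPM, cluster 28.2 (which holds macrophage and monocyte markers) 85.9, injured tubule-like cells 81.0, cluster 27 74.8 and macrophage-like cells 55.2 CPM. The 3151 knockout UMIs lay in 1856 cells.

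Mmp2 (gelatinase A) had 8 UMIs in the wild type and 118 in the knockout. Fibroblast-like cells had 177 CPM, in 16 of 27 cells, and injured tubule-like cells 28.5 CPM. Endothelium-like cells, the compared class with at least 20 UMIs, had 7.80 and 14.8 CPM, a ratio of 0.81 with an interval of -0.48 to 2.66. In the 5 tubule classes it had 0 to 3 UMIs per library, under the 20 UMIs required for a count. The proximal tubule-like ratio, from 0 and 3 UMIs, had an interval from 0.21 upward. In the other tubule classes no difference was detectable at this depth.

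Timp3, the matrix-bound inhibitor, was lower in the knockout where the wild type level was highest. Proximal tubule-like cells had 1348 CPM in the wild type and 572 in the knockout (log2 ratio -1.24, -1.28 to -1.20), and endothelium-like cells 4845 and 2563 CPM (-0.92, -0.99 to -0.85). It was higher in thick ascending limb-like cells (265 and 478 CPM, 0.85), distal convoluted tubule-like cells (220 and 485 CPM, 1.14) and intercalated-like cells (113 and 197 CPM, 0.80), and the same to within counting error in principal-like cells (484 and 481 CPM, -0.01, -0.13 to 0.12). In cells with few dissociation response transcripts the thick ascending limb ratio was -0.26 (269 and 225 CPM) and the distal convoluted ratio 0.05 (214 and 221 CPM, -0.22 to 0.31), while the intercalated ratio was 1.21 (82.8 and 191 CPM). The distal convoluted ratio was also under 2-fold with totals without mitochondrial genes (0.74), trimmed-mean factors (0.73) and relative to the median gene (0.68). Shared clusters 4 and 12 had ratios of 0.70 (0.47 to 0.93) and 0.46 (0.15 to 0.77), and shared cluster 20 had 2.42 (1.15 to 4.49). The median gene of these classes was itself 0.26 higher in proximal tubule-like, 0.25 in intercalated-like, and 0.46 in both thick ascending limb-like and distal convoluted tubule-like cells, on the log2 scale. Among proximal tubule-like cells under 25% mitochondrial UMIs the ratio was -0.93, which is less than a 2-fold difference. The endothelial difference was larger in cluster 11 (6260 and 2579 CPM, -1.28), while cluster 14 had 3030 and 2540 CPM (-0.25, -0.37 to -0.14). Among endothelium-like cells, 9 of 154 in the wild type and 41 of 474 in the knockout held 50% of the Timp3 UMIs. Syn3, which holds Timp3 on the other strand, had 1.5 to 5.62 UMIs per 100 Timp3 UMIs over the classes, 3.17 in the wild type library and 3.03 in the knockout. The exons of these genes overlap at 1 place, and whether the Syn3 UMIs came from Timp3 transcripts was not tested.

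Timp2, which inhibits Mmp14 and also serves as its adaptor in Mmp2 activation, was higher in the knockout in all 5 tubule classes and not in endothelium. Principal-like cells had 165 and 306 CPM (log2 ratio 0.89, 0.68 to 1.11). Thick ascending limb-like cells had 5.28 and 76.2 CPM (3.81, 3.16 to 4.64), intercalated-like cells 10.1 and 33.8 CPM (1.73, 1.19 to 2.34), and proximal tubule-like cells 0.325 and 13.4 CPM (5.30, 4.45 to 6.46). Distal convoluted tubule-like cells had no wild type UMI and 35.8 CPM in the knockout, at least 19.6-fold higher. Of those 140 knockout UMIs 139 lay in cluster 5, and shared cluster 4 had 0 and 1 UMI. Shared intercalated cluster 12 had 4.32 and 12.05 CPM (1.42, 0.15 to 2.98). Shared intercalated cluster 20, with few UMIs per cell, had 0 and 102 CPM (43 UMIs), at least 5.42-fold higher. The lowest upper bound among large knockout clusters was 6.81 CPM in proximal cluster 13 (3.13 CPM), and proximal cluster 17 had 16.2 CPM. Endothelium-like cells had 93.6 and 85.3 CPM (-0.14, -0.57 to 0.32). Fibroblast-like (766 CPM), injured tubule-like (519 CPM) and podocyte-like cells (501 CPM, interval 370 to 665) were the highest in the knockout, the last 2 with overlapping intervals, and macrophage-like cells had 185 CPM.

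Timp1, a secreted inhibitor known as a marker of tissue injury, had no wild type UMI in any tubule class. The knockout levels were 17.6 CPM in intercalated-like cells (at least 18.6-fold higher), 10.9 CPM in thick ascending limb-like cells (at least 11.8-fold) and 6.43 CPM in proximal tubule-like cells (at least 66.0-fold). Principal-like cells had 2.6 CPM, under the upper bound of distal convoluted cluster 5 (0.968 CPM, up to 2.83), and the wild type class was too shallow to show a difference of this size. Endothelium-like cells had 15.6 and 25.6 CPM (0.66, -0.29 to 1.87). Fibroblast-like cells had 770 CPM, 204 UMIs in 19 of 27 cells, and 1 cell held 74 of them. Cluster 28.2 had 113 CPM, 33 UMIs of which 1 cell held 21, and monocyte-like cells 45.3 CPM. In intercalated cluster 12, which held 117 wild type and 106 knockout cells, Timp1 was at 0 and 24.8 CPM, at least 13.4-fold higher. Shared intercalated cluster 20 had 0 and 8 UMIs, a bound of 1.01-fold with a ratio interval from -0.63. Shared clusters 2 and 4 had no Timp1 UMI in either library.

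**Figure D3:**
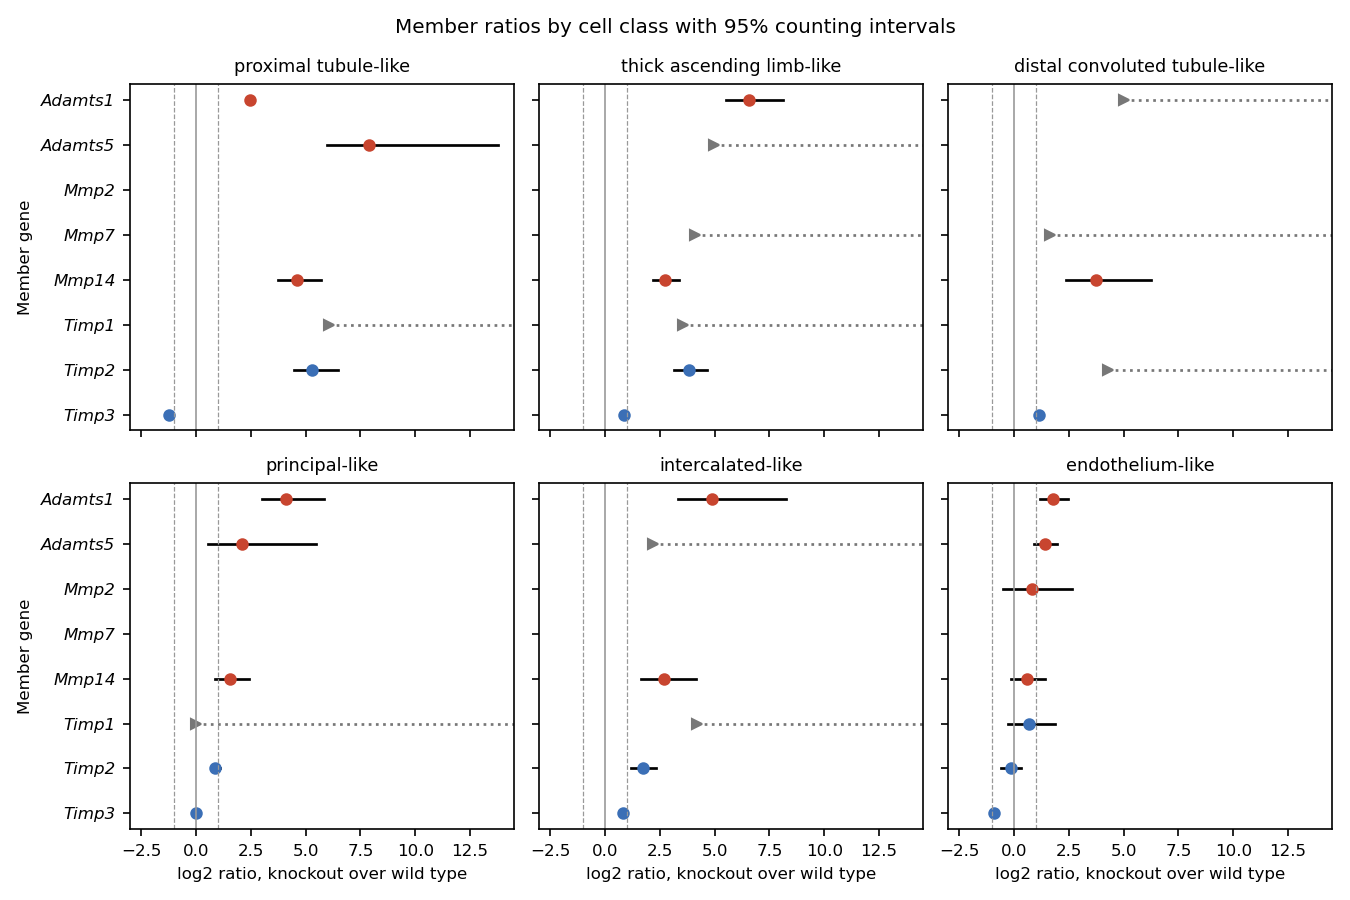
Log2 ratio of knockout over wild type level (horizontal axis) for each member with at least 20 UMIs in a class (vertical axis), in the 6 compared classes. Dots are ratios with 95% counting intervals (red proteases, blue inhibitors), grey arrows start at the bound set by 3 UMIs where the wild type had none, and dashed lines mark 2-fold; Timp3 is left of 0 in proximal tubule-like and endothelium-like cells.

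Counted against all genes, most members with at least 20 UMIs were at least 2-fold higher in the tubule classes. In thick ascending limb-like cells 6 of 7 were higher and 0 lower, where 23.6% of all genes were higher and 4.67% lower. In distal convoluted tubule-like cells 5 of 5 were higher, where 20.3% of all genes were higher and 3.46% lower. In intercalated-like cells 5 of 6 were higher and 0 lower, beside 10.9% and 2.98% of all genes. In principal-like cells 4 of 6 were higher and 0 lower, beside 11% and 7.09% of all genes, and 1 of the 4 is Timp1, whose bound is 1-fold. In proximal tubule-like cells 5 of 6 were higher (14.1% of all genes) and 1, Timp3, was lower (4.14% of all genes). In endothelium-like cells 2 of 7 were higher, Adamts1 and Adamts5, and 0 lower, beside 4.89% and 3.45% of all genes. The median log2 ratio of the members, with members at 0 in the wild type set to their bound, was 4.96 in proximal tubule-like, 3.81 in thick ascending limb-like, 3.72 in distal convoluted tubule-like, 2.43 in intercalated-like, 1.21 in principal-like and 0.66 in endothelium-like cells, beside 0.28, 0.48, 0.46, 0.26, -0.01 and 0.02 over all genes. The members not counted, 1 to 3 per class, had under 20 UMIs. Members that are low in the wild type pass this count only through their knockout level.

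**Figure D4:**
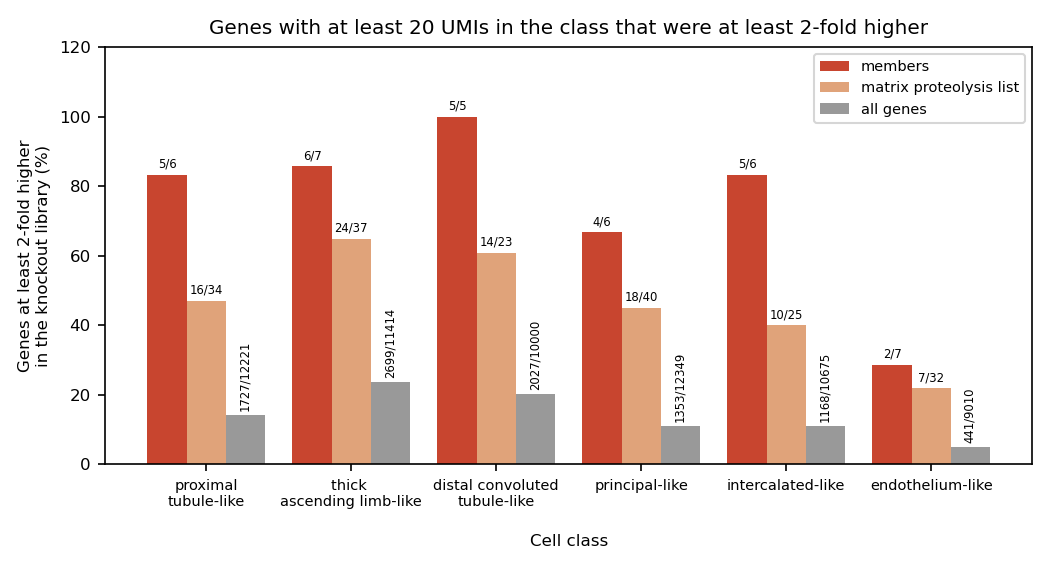
Share of genes with at least 20 UMIs in a class that were at least 2-fold higher in the knockout library (vertical axis, %) for the members, the 74-gene matrix proteolysis list without them and all genes, in 6 classes (horizontal axis). Numbers above the bars are genes higher over genes counted; the member bars exceed the all-gene bars in every class, most in distal convoluted tubule-like cells (5 of 5).

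In a wider list of 74 other genes of matrix proteolysis, higher genes outnumbered lower ones in each of the 6 classes. Among all genes, higher ones also outnumbered lower ones in each class. At least 2-fold higher and lower were 24 and 1 of 37 genes in thick ascending limb-like cells, 14 and 0 of 23 in distal convoluted tubule-like cells, 16 and 2 of 34 in proximal tubule-like cells, 18 and 2 of 40 in principal-like cells, 10 and 0 of 25 in intercalated-like cells and 7 and 3 of 32 in endothelium-like cells. Over all genes, in this order of classes, 23.6%, 20.3%, 14.1%, 11%, 10.9% and 4.89% were higher. The shares lower were 4.67%, 3.46%, 4.14%, 7.09%, 2.98% and 3.45%. With genes at 0 in the wild type set to their bound, the median log2 ratios of the list were 1.46, 1.5, 0.86, 0.46, 0.61 and 0.06. The medians over all genes were 0.48, 0.46, 0.28, -0.01, 0.26 and 0.02. By group, genes of the plasminogen system were higher in 5 of 5 in proximal tubule-like, 3 of 4 in thick ascending limb-like, 1 of 1 in distal convoluted tubule-like, 4 of 4 in principal-like, 1 of 2 in intercalated-like and 3 of 5 in endothelium-like cells. ADAM and ADAMTS genes were higher in 1 of 8 (1 lower), 7 of 9, 5 of 7, 4 of 12 (1 lower), 2 of 6 and 2 of 9 (1 lower) in the same order. In proximal tubule-like cells the plasminogen genes included Plaur, the urokinase receptor (0.195 and 9.61 CPM), and Plau, urokinase itself (9.42 and 60.9 CPM). The cysteine protease inhibitor Cstb was at 156 and 773 CPM there, while Adamts15 was at 3.7 and 0.816 CPM. In thick ascending limb-like cells fibronectin (Fn1), Plaur and Mmp23 lacked wild type UMIs, with knockout levels at least 33.0-fold, 24.5-fold and 21.7-fold higher. Mmp23 was also absent from wild type principal-like cells and at least 9.01-fold higher, beside the basement membrane protein Nid1 at 0.876 and 48.9 CPM. In distal convoluted tubule-like cells the cell surface proteoglycan Sdc1 was at 1.83 and 31.7 CPM. In endothelium-like cells Adamts9 was at 6.24 and 41.5 CPM and Adamts16 at 26.5 and 9.10 CPM.

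The same classes differed in other markers. Summed over its own marker list, the thick ascending limb-like class was at 33656 CPM in the wild type and 10689 in the knockout, and over the 15 injured tubule markers at 908 and 8987 CPM. Proximal tubule-like cells were at 38906 and 12664 CPM for their own markers and 92.8 and 849 CPM for the injury markers, and principal-like cells at 2762 and 14288 CPM for the latter. Endothelium-like cells were at 21056 and 20691 CPM for their own markers. The 10 fibroblast markers summed to 10.2 and 207 CPM in thick ascending limb-like cells, where Pdgfra, Lum, Col6a3 and Dpt had no UMI in either library, and to 6.37 and 9.15 CPM in proximal tubule-like cells, where Pdgfra, Lum and Col6a3 had none. Their sum was 122 and 221 CPM in principal-like cells, where all 10 had a UMI in the knockout. Dissociation response genes were at 721 and 3694 CPM in thick ascending limb-like, 404 and 1077 CPM in proximal tubule-like, 1758 and 2404 CPM in principal-like and 3879 and 3621 CPM in endothelium-like cells. The median mitochondrial share was 34.1% in wild type and 7.41% in knockout thick ascending limb-like cells. Proximal tubule-like cells had 27.9% and 19.8%, and endothelium-like cells 5.84% and 4.00%. The part of these marker and quality differences in the member ratios was not tested.

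Knockout levels of Adamts1 were lower in cells with few dissociation response transcripts than in those with many in 3 tubule classes, the same in principal-like cells and higher in intercalated-like cells. Split at the median share of these transcripts over all kept cells, 308 wild type and 109 knockout thick ascending limb-like cells had few, and in these Adamts1 was at 1.01 CPM (3 UMIs) and 87.0 CPM, Mmp14 at 8.39 and 26.3 CPM, and Timp2 at 3.69 and 20.0 CPM. In the knockout cells with many such transcripts Adamts1 was at 208 CPM, Mmp7 at 18.7 CPM (3.19 CPM in those with few) and Timp3 at 527 CPM. In proximal tubule-like knockout cells Adamts1 was at 34.9 CPM with few and 153 CPM with many, and in the wild type at 11.6 and 22.5 CPM, where the intervals overlap. In distal convoluted tubule-like knockout cells it was at 24.1 and 71.2 CPM, in intercalated-like ones at 51.2 and 17.5 CPM, and in principal-like ones at 81.6 and 81.8 CPM. The part of dissociation in the member ratios was not tested beyond this split.

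**Figure D5:**
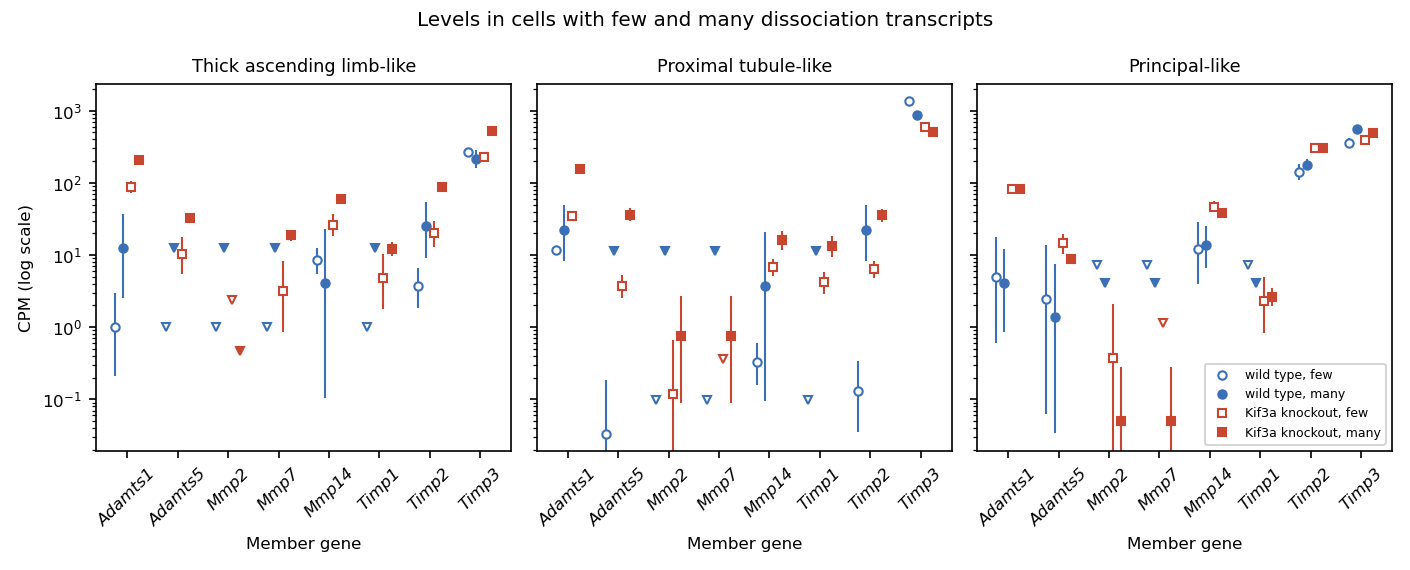
CPM of each member (log scale) in thick ascending limb-like, proximal tubule-like and principal-like cells, split by few (open) or many (filled) dissociation transcripts in each library. Bars are 95% counting intervals, and downward triangles mark the limit that 0 UMIs allow; in knockout principal-like cells Adamts1 is at 81.6 and 81.8 CPM, while in the other knockout classes drawn it is higher in cells with many.

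Detection of several members in 1 cell also differed between the libraries. Cells with UMIs of at least 3 members were 1.47% of wild type and 48.5% of knockout thick ascending limb-like cells, at medians of 8900 and 8716 UMIs per cell, and 7.69% and 54.2% of principal-like cells, at 6734 and 10340 UMIs per cell. They were 0.134% and 7.85% of proximal tubule-like cells and 93.2% of injured tubule-like cells. The 5 protease genes made up 1.24% of member UMIs in the wild type and 18.5% in the knockout (3.54% and 33.8% in thick ascending limb-like cells), and Timp3 was the main part of the remainder. Thinned to 2000 UMIs per cell, Adamts1 was found in none of 314 wild type thick ascending limb-like cells (upper bound 1.17%) and in 26.9% of 584 knockout cells, and without thinning in 1.76% and 57.5%.

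Over 20 pairs of class and library with at least 50 cells, the genes whose log2(CPM + 1) was most like a member's among 6672 genes were as follows. For Adamts5 these were Fbn1, which encodes the microfibril protein fibrillin (Pearson r 0.94), Akap12 and Mcrs1, and for Mmp2 the small proteoglycan Bgn (0.94), Lix1l and Itga9. For Mmp7 they were Psca (0.89), Upk3bl and Wnt10a, where 9 of 20 pairs had a Mmp7 UMI, and for Timp1 Utp14a (0.92), Fn1 and Ecm1. For Mmp14 they were Rtn4 (0.95), Tubb5 and Nol12, for Adamts1 Pdap1 (0.87), Gmds and Uchl1, and for Timp2 Myl12a (0.92), Smarce1 and Kdm1a. For Timp3 they were its overlapping gene Syn3 (0.98), Sptbn1 and Zcchc14. The pairs share 2 libraries, so these values describe likeness and have no test.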

How the data were processed

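Kidney cells of 1 wild type and 1 Kif3aΔTub library were analysed from the filtered UMI counts per gene and barcode that the authors deposited. The counts were made with Cell Ranger 3.1.0, per the file headers. The submitters' processing notes list version 3.0.2 of that tool, Seurat 3.1.1 and the mm10 build. No normalized values were used.

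A barcode was kept if it had 500 or more UMIs, 200 or more genes and a mitochondrial share below 50%, and Scrublet doublets were removed (54 wild type, 170 knockout). Counts were clustered with scanpy 1.11.5 and Leiden at resolution 1 on 30 components, leaving the members and the matrix proteolysis list out of the variable genes. A cluster took the name of the type with the most markers among its 10 leading genes, if at least 3 markers passed. That could rest on 1 leading gene. Where no leading gene was a marker, the type with clearly the highest share of markers passed was used. That naming rule was written after the clusters were seen, and 8 of 42 clusters and subclusters stayed unnamed, 1.53% of wild type and 15.2% of knockout cells. Class names may differ from the authors'. Levels are class UMI sums per 1000000 UMIs (CPM) with exact Poisson intervals. Ratios add 0.5 UMIs to each sum, and folds against 0 UMIs are bounds from 3 counts over the class. PCR can copy molecules, so intervals cover counting error only. The ratios and intervals were tested on simulated data.

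All 8 members are named. From the matrix proteolysis list, up to 4 genes per class were named: those with the largest ratios, at least 20 UMIs, an interval without 0 and at least 0.5 times the level over all cells of the higher library. Some genes that this rule picks are not reported here. For likeness the 3 nearest genes by Pearson correlation are given. The members and lists were chosen with earlier results of these data known. Gene positions come from GENCODE, and 30934 of 31053 gene identifiers matched it. Trimmed-mean factors from edgeR 4.0.16 (R 4.3.3) were an alternative scaling. The other alternatives are in the closing section.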

Additional observations from a re-analysis of the deposited data

Results flagged for a closer look

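Timp3 was lower in the knockout library in proximal tubule-like cells (log2 ratio -1.24) and in endothelium-like cells (-0.92), while it was higher in thick ascending limb-like, distal convoluted tubule-like and intercalated-like cells (0.85, 1.14 and 0.80). With 1 library per genotype this difference in direction was not tested. In cells with few dissociation transcripts the thick ascending limb ratio was -0.26 and the distal convoluted ratio 0.05 (-0.22 to 0.31).

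Barcodes that failed the filters or were removed as doublets, 2621 in the wild type and 884 in the knockout library, entered no comparison. Of these, 54 and 170 were doublets. Their summed levels in the knockout were 46.8 CPM for Adamts1 (4.01 in the wild type), 12.2 CPM for Adamts5 (0.650), 4.17 CPM for Mmp7 (0 UMIs), 19.7 CPM for Mmp14 (0.325), 4 CPM for Timp1 (0 UMIs) and 86.6 CPM for Timp2 (1.52). Timp3 was at 358 CPM there and 612 CPM in the wild type. These barcodes come from cells of unknown class.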

How the results depend on the processing

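Of the member ratios under the alternatives, 451 values stayed within the spread of the reported value, 42 moved and 1 reversed: Timp3 in thick ascending limb-like cells was -0.26 in cells with few dissociation transcripts (reported 0.85), and the cause was not tested. The counts of members and list genes under the alternatives below have no share of all genes beside them. Whether they exceed that share was not tested. In cells with few dissociation transcripts, members at least 2-fold higher were 3 of 4 in thick ascending limb-like cells. They were 1 of 2 in distal convoluted tubule-like and 3 of 3 in intercalated-like cells. Fewer members had 20 UMIs there, and Timp3 in distal convoluted tubule-like cells was at 0.05. Also with few such transcripts the intervals of Timp2 in distal convoluted (3.70, from -0.07), Adamts5 in principal-like (1.99, from -0.01) and Mmp14 in intercalated-like cells (1.43, from -0.31) included 0. List genes higher were 6 of 19, 5 of 16, 5 of 19 and, in principal-like cells, 11 of 23 (0 lower), with 1 lower in proximal tubule-like cells. At a 25% mitochondrial limit 0 members were lower in proximal tubule-like cells, also within the reported classes, an alternative chosen after the data were seen, and 3 of 5 members were higher in intercalated-like cells, where Timp2 was at 0.82 and the Adamts5 interval included 0 (from -0.03). Mmp7 in distal convoluted tubule-like cells under 25% mitochondrial UMIs was at 1.76 (from -1.28). List genes lower in intercalated-like cells were then 1 of 24, and 1 with totals without mitochondrial genes, trimmed-mean factors, the median gene or a 1.5-fold threshold. In principal-like cells 1 was lower at the 25% limit, at resolution 2 and with members kept in clustering, 0 at 1000 UMIs per cell, 4 with 1 UMI added and 7 at 1.5-fold. In the thick ascending limb 0 were lower under 25% mitochondrial UMIs. With doublets kept, list genes higher were 17 of 32 in intercalated-like and 11 of 36 in endothelium-like cells, 1 was lower in distal convoluted tubule-like cells and 1 member was lower in endothelium-like cells. At resolution 2, 10 of 31 list genes were higher and 1 lower in proximal tubule-like cells. At 1.5-fold, 4 of 7 members were higher and 1 lower in endothelium-like cells, with 5 list genes lower. List genes with at least 1 UMI gave 30 of 56 higher in proximal, 25 of 49 (5 lower) in distal convoluted, 35 of 55 (3 lower) in intercalated and 14 of 57 (6 lower) in endothelium-like cells, with 4 lower in thick ascending limb and 18 in principal-like cells. At least 100 UMIs gave 7, 13, 7, 5 and 2 higher in proximal, thick ascending limb, distal convoluted, intercalated and endothelium-like cells, 0 lower in principal-like and 1 in endothelium-like cells. No value could be had at the 25% limit for the thick ascending limb and distal convoluted tubule, at resolution 0.5 for the latter, or with few dissociation transcripts for endothelium.

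No paired analysis was possible because each genotype has 1 library. Classes below 100 cells in a library have no ratio, and 27 fibroblast-like and 73 injured tubule-like cells carry several of the highest levels. Wild type principal-like cells held 156 cells, which limits their bounds.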
